A study of Mus musculus with 6 samples.

Results

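Ada and 9 other genes of adenosine metabolism and adenosine sensing were followed in haematopoietic stem cells (HSCs) of mice lacking the muscarinic acetylcholine receptor gene Chrm1. The genes were listed by name: the enzymes Ada, Adk, Pnp, Nt5e and Entpd1, the transporter Slc29a1, and the receptors Adora1, Adora2a, Adora2b and Adora3. They were chosen because Ada read lower in the knockout, so the contrast between genotypes served to choose them and its values are given here as a description. Of the 10 genes, 7 had a transcript cluster (the array's unit of measurement for a gene) with a single gene symbol, among 22180 such genes in all. Array signals of Adora1, Adora2a and Adora2b were not analysed here.

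The study profiled HSCs from the marrow of mice at steady state, with no treatment named. Wild type C57Bl/6 cells gave 3 arrays, and Chrm1-/- cells on the C57Bl/6 strain gave 3 arrays. The sort kept Sca1+ cKit+ cells without Lineage markers or Flt3, a gate that holds stem cells and the earliest progenitors. The labels give neither age nor sex, do not name the part of Chrm1 that was deleted, and do not say whether replicates were separate mice, so that the spread between arrays may be technical. The values are log2 signals as deposited, whose medians per array lay between 6.49 and 6.57. Precision is limited by having 3 arrays per genotype, and in bulk samples such as these fewer cells of a type and less RNA per cell cannot be told apart.

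Adenosine is made outside cells when Entpd1 (CD39) strips ATP and ADP to AMP and Nt5e (CD73) strips AMP to adenosine. Slc29a1 (ENT1) carries adenosine across the cell membrane in either direction, and inside the cell Adk phosphorylates it back to AMP. Ada, adenosine deaminase, converts adenosine and deoxyadenosine to inosine and deoxyinosine, which Pnp then splits to hypoxanthine. Loss of Ada or Pnp is known to cause immune deficiency, since deoxynucleotides that build up are toxic to lymphocytes. The adenosine receptors are G protein-coupled: Adora1 and Adora3 lower cAMP, and Adora2a and Adora2b raise it.

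The sequences just before the annotated starts of Ada, Adk and Pnp are shown because these enzymes share adenosine or its product as substrate. Whether they bear on the array signals was not tested. Each is 250 bases, 5′ to 3′ along the gene, from the RefSeq promoter table of GRCm38.p6, at the first start listed. Capitals mark the GC box GGGCGG or its reverse complement.
Ada, chr2:163750240-163750489, minus strand: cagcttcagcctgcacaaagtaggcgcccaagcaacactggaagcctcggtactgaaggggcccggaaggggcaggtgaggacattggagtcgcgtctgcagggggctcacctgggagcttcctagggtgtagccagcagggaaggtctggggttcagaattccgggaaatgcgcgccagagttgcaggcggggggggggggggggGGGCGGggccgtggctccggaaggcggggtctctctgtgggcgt
Adk, chr14:21052324-21052573, plus strand: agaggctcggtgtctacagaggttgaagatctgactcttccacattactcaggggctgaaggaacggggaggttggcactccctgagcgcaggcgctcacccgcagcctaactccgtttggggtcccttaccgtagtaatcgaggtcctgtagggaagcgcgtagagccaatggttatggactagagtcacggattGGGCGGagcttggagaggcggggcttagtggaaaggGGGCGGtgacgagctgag
Pnp, chr14:50944053-50944302, plus strand: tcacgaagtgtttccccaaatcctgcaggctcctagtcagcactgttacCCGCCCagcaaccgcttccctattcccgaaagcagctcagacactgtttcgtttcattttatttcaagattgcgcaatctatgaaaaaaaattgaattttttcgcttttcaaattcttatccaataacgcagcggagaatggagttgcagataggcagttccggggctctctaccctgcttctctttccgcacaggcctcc

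The Ada window held 1 GC box, at the end of a long run of G, and had a GC content of 67.2%. The Adk window held 2 and had a GC content of 58.8%. The Pnp window held 1, read on the opposite strand, and its GC content of 46.8% lay below the median of 52.4% over all 32851 windows in the table. Of the 10 genes, 9 matched the table with 19 windows in all, since some genes have several starts. Slc29a1 alone gave 8 of them, and Adora1 and Adora2b, whose array signals were not analysed, gave 2 and 1. Windows of 1 gene are not independent, so the counts below describe windows rather than genes. Searched on both strands, GGGCGG lay in 11 of these 19 windows and in 32.7% of all windows. TATAAA lay in 0 of the 19 and in 12.4% of all. TGACG, a core of the cAMP response element, lay in 4 of the 19 and in 17.8% of all. AGAACA, an arm of the glucocorticoid receptor's element, lay in 1 of the 19, a window of Slc29a1, and in 16.1% of all. These matches describe letters only.

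Among the measured genes, Ada was the gene whose arrays separated by genotype. Its signal was 8.93, 9.48 and 9.24 on the wild type arrays and 8.54, 8.14 and 8.20 on the Chrm1-/- arrays. All 3 Chrm1-/- arrays lay below all 3 wild type arrays, and the gap between the lowest wild type and the highest Chrm1-/- array was smaller than the range of either genotype. The means were 9.22 ± 0.28 (SD, n = 3) and 8.29 ± 0.22 (SD, n = 3). The log2 difference was -0.92 ± 0.19 (SE, from limma), a 1.90-fold lower signal, with a 95% interval from -1.38 to -0.47. This value chose the genes and is a description. Among 11094 genes bright enough to be tested, 71 had a difference as low as that of Ada or lower, Ada included.

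Over all tested genes, 0 passed a Benjamini-Hochberg adjusted p of 0.05 in limma (0% of genes), with 0.926 as the smallest value. Without the adjustment 332 genes fell under 0.05 in limma. They were 2.99% of the tested genes, a smaller share than that threshold lets through where nothing differs. Without moderation of the variances 1 gene passed, Apmap. Of the 5 adenosine genes bright enough for the fit, 1 had an unadjusted p under 0.05 with a lower signal, where the share over all tested genes was 1.6%; it was Ada, for which that was settled by the choice. Groups that did not overlap with Chrm1-/- lower were found for 1 of the 5, again Ada, and for 2.97% of all tested genes. Of these 5 genes 3 had a higher and 2 a lower mean in Chrm1-/-, and their median difference was 0.10 where that of all tested genes was 0. As the contrast served to choose the genes, these counts support nothing.

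**Figure D1:**
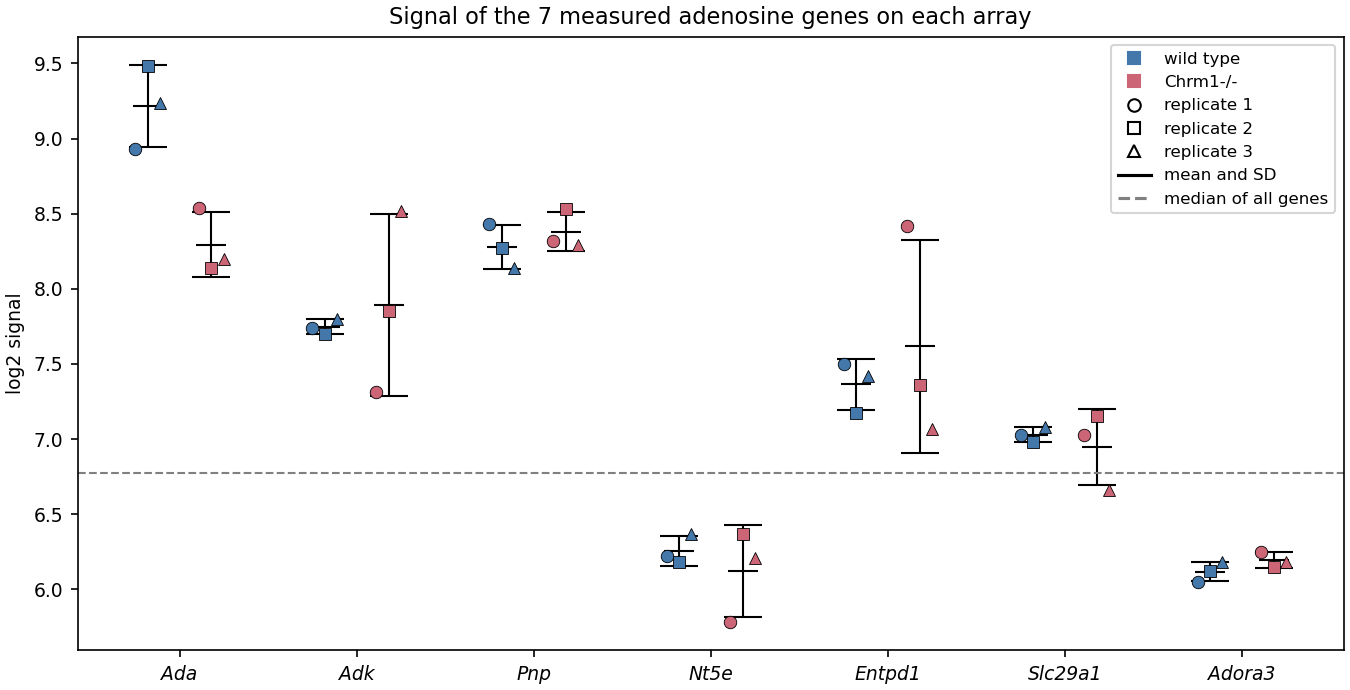
Log2 signal (vertical axis) of the 7 measured adenosine genes on the 3 wild type arrays (blue) and the 3 Chrm1-/- arrays (red), with replicates by symbol, mean and SD as bars, and the median of all genes, 6.77, as a dashed line. The Ada arrays separate by genotype, from 8.93 to 9.48 against 8.14 to 8.54, while the arrays of the other 6 genes overlap; heights of different genes come from different probes and are not compared.

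The enzymes that take up the same substrate or the product of Ada did not separate by genotype. Adk, which competes with Ada for adenosine inside the cell, read 7.74, 7.70 and 7.80 in wild type and 7.31, 7.85 and 8.52 in Chrm1-/-. The wild type arrays lay within 0.1 of each other, and the Chrm1-/- arrays lay below, just above and well above them. The means were 7.75 ± 0.05 (SD, n = 3) and 7.89 ± 0.61 (SD, n = 3), a difference of 0.15 ± 0.30 (SE) with a 95% interval from -0.57 to 0.87. The sign turned to -0.17 without Chrm1-/- replicate 3, and the difference was 0.44 without Chrm1-/- replicate 1.

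Pnp acts one step after Ada. Its signal was 8.43, 8.27 and 8.14 in wild type and 8.32, 8.53 and 8.29 in Chrm1-/-, with overlapping groups. The difference was 0.10 ± 0.13 (SE), with a 95% interval from -0.21 to 0.41. Pnp2, a close paralog that neighbours Pnp in the RefSeq gene table, had its own cluster at 5.01, 5.57 and 5.27 in wild type and 4.83, 5.22 and 5.50 in Chrm1-/-, below the signal needed for testing. Whether probes of either cluster also pick up the other gene is not stated, so the split between these paralogs is uncertain.

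The ectoenzymes that make adenosine outside the cell also overlapped between genotypes. Entpd1, which starts the breakdown of extracellular ATP, read 7.50, 7.17 and 7.42 in wild type and 8.42, 7.36 and 7.07 in Chrm1-/-. Chrm1-/- replicate 1 stood high, and the other 2 Chrm1-/- arrays lay within or below the wild type range. The means were 7.36 ± 0.17 (SD, n = 3) and 7.62 ± 0.71 (SD, n = 3), and the difference of 0.25 ± 0.35 (SE) had a 95% interval from -0.60 to 1.11. It turned to -0.15 without Chrm1-/- replicate 1. Nt5e, which carries out the final step to adenosine, lay below the median of all genes and was not tested. Its arrays read 6.22, 6.18 and 6.37 in wild type and 5.78, 6.37 and 6.21 in Chrm1-/-. The lowest was the Chrm1-/- replicate 1 array on which Entpd1 was highest. The difference, from a fit with no filter on dim genes, was -0.14 ± 0.17 (SE), and it turned to 0.03 without Chrm1-/- replicate 1.

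Slc29a1, the carrier that brings adenosine to Adk and Ada, read 7.03, 6.98 and 7.08 in wild type and 7.03, 7.15 and 6.66 in Chrm1-/-. The wild type arrays were tight, and 1 Chrm1-/- array, replicate 3, lay below them. The difference was -0.08 ± 0.15 (SE), with a 95% interval from -0.45 to 0.29, and it turned to 0.06 without that array. A second cluster of the gene, at signals between 4.68 and 5.12 on the 6 arrays, was dimmer and was not used. Adora3, the receptor gene that was measured, read 6.05, 6.12 and 6.18 in wild type and 6.25, 6.15 and 6.18 in Chrm1-/-. It lay below the median of all genes, and its arrays spanned the narrowest range of the 7 genes. Its difference in the fit with no filter was 0.08 ± 0.08 (SE), with a 95% interval from -0.12 to 0.28. Low signals on such arrays do not show whether a receptor is expressed.

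**Figure D2:**
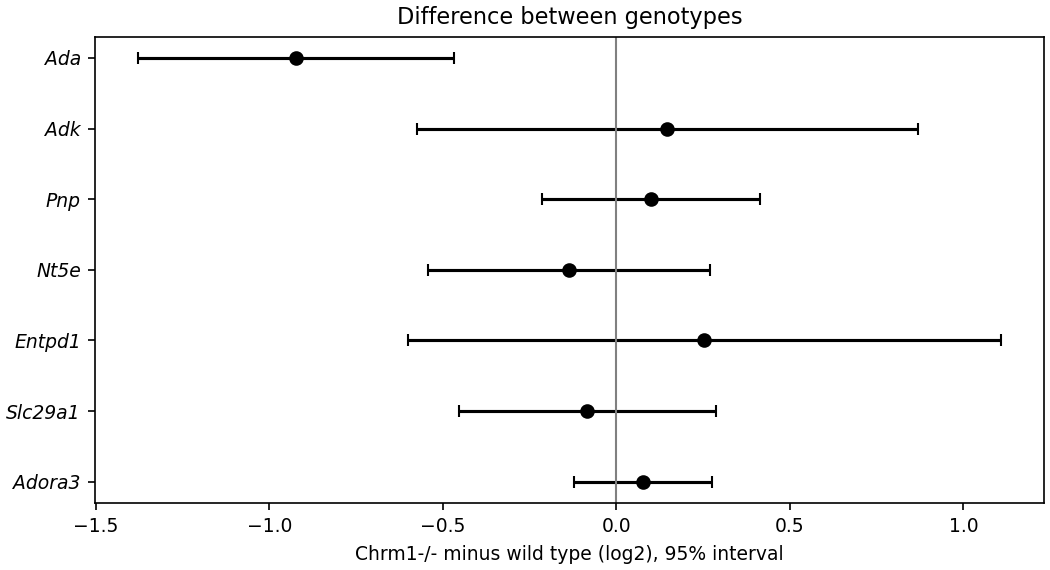
Difference in log2 signal, Chrm1-/- minus wild type (horizontal axis), of the 7 measured genes, with 95% intervals from limma over 3 arrays per genotype; Nt5e and Adora3 come from the fit with no filter on dim genes. Ada lies at -0.92 with its interval from -1.38 to -0.47, and the 6 other intervals include 0.

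The intervals bound what these arrays could have shown for the other 6 genes. Their lower bounds ran from -0.60 for Entpd1 to -0.12 for Adora3, so that a drop as large as the -0.92 of Ada lay outside each of them. Intervals that include 0 do not show that the genes were alike in the genotypes. The widest were those of Entpd1, with 1 Chrm1-/- array far from the others, and Adk, whose Chrm1-/- arrays were spread widely. The difference between Ada and the other genes was not tested, since the choice of genes used it. Pearson's r with Ada over the 6 arrays was 0.25 for Slc29a1, 0.09 for Nt5e, -0.11 for Entpd1, -0.34 for Adora3, -0.38 for Adk and -0.58 for Pnp. These are descriptions over 6 arrays that share the genotype split.

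The wider purine and adenosine pathway was read through 8 lists, of which 118 of 134 genes were on the array and 81 were tested. Of the 81, 51 had a higher and 29 a lower mean in Chrm1-/- and 1 was equal; over all tested genes 50% were higher and 49.2% lower. The median difference of the 81 was 0.05. In limma 0 passed the adjusted threshold and 1 had an unadjusted p under 0.05, against 2.99% of all tested genes. That gene was P2rx4, an ion channel opened by extracellular ATP.

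P2rx4 read 8.60, 8.36 and 9.15 in wild type and 8.08, 6.94 and 7.39 in Chrm1-/-. The genotypes did not overlap, with Chrm1-/- lower and the lowest at replicate 2. The difference was -1.23 ± 0.34 (SE), a 2.35-fold lower signal, with an unadjusted p of 0.0103 and an adjusted p of 0.996 in limma. P2rx1, another ATP-gated channel, and P2ry1, an ADP receptor, were the other genes of the 81 whose groups did not overlap, and both were higher in Chrm1-/-. P2rx1 read 7.36, 7.0 and 7.48 against 7.84, 7.62 and 7.49, a difference of 0.37 ± 0.17 (SE). P2ry1 read 6.89, 6.83 and 6.87 against 6.98, 7.09 and 7.26, a difference of 0.25 ± 0.11 (SE). Non-overlap was found for 2.81% of all tested genes with Chrm1-/- higher and for 2.97% with Chrm1-/- lower. Of the 7 tested P2 receptors 4 were higher and 2 lower, and P2ry14 was equal, with a median of 0.03. Past the 75th percentile of signal only P2rx4 and P2ry14 were left. The median there, -0.62, lay midway between their differences and does not describe the other receptors.

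Markers of monocytes and macrophages, cells in which P2rx4 is well known, gave mean signals between 7.23 and 7.63 in wild type and between 7.15 and 7.49 in Chrm1-/- over 7 genes. Of these, 3 lay below the signal needed for testing, among them Csf1r and Adgre1, and the 4 tested had a median difference of -0.16 (1 higher, 3 lower). Over the 7 on the array the median was -0.05. Cd68, a lysosomal protein of macrophages, was the tested member whose groups did not overlap, at 8.79, 9.0 and 10.25 against 8.47, 8.16 and 8.19. The other tested members overlapped, with Ly86 differing by 0.51 ± 0.44 (SE), Lyz2 by -0.05 ± 0.14 (SE) and Ccr2 by -0.26 ± 0.20 (SE). Non-overlap with Chrm1-/- lower was found for 2.97% of all tested genes. The part of such cells in the P2rx4 difference was not tested.

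Ada is abundant in T lineage cells, and markers of T and NK cells gave mean signals between 6.70 and 6.84 in wild type and between 6.59 and 6.98 in Chrm1-/- over 11 genes. Of these, 8 lay below the signal needed for testing, Cd3d, Cd3e, Cd3g, Cd4 and Cd8a among them. The 3 tested members had a median difference of -0.02, with 1 higher and 2 lower, and each overlapped between genotypes. Trat1, an adaptor of the T cell receptor, differed by -0.93 ± 0.49 (SE), the granzyme gene Gzma by 0.49 ± 0.50 (SE) and Nkg7 by -0.02 ± 0.19 (SE). Of 5 tested granulocyte precursor markers 5 had a lower mean in Chrm1-/-, with a median of -0.36, where 49.2% of all tested genes were lower. Each of the 5 overlapped between genotypes. A further 4 lay below the signal needed for testing. Of these, Camp and Ltf differed by 0.21 and 0.04, and S100a8 and S100a9 by -0.22 and -0.23. Over the 9 on the array the median was -0.22. Their mean signals lay between 7.48 and 7.55 in wild type and between 7.16 and 7.55 in Chrm1-/-. The 7 further marker lists, for HSCs, lymphoid-primed progenitors, B cells, erythroid cells, megakaryocytes, mast cells and stroma, had medians between -0.12 and 0.18. Among their tested genes 3 had groups that did not overlap. Procr, a receptor used to purify HSCs, differed by -0.25 ± 0.10 (SE) and was 1 of 9 tested genes of its list. The lymphocyte glycoprotein gene Cd52 differed by 0.76 ± 0.14 (SE), as 1 of 5 tested in the lymphoid-primed list. F2rl2 differed by 1.13 ± 0.36 (SE), as 1 of 5 tested in the megakaryocyte list. In that list 3 tested genes were higher and 2 lower, with a median of 0.003. Its member Pf4 went the other way, at -0.88 ± 0.37 (SE), with overlapping groups. Over all tested genes non-overlap was found for 2.97% with Chrm1-/- lower and for 2.81% with it higher. Kit read 10.79 or more on all 6 arrays and Cd34 11.14 or more. The Flt3 transcript, though its protein was gated out, read 9.87 or more. The part of other cells in the Ada difference was not tested.

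Tested enzymes that act beside Ada on adenosine nucleotides overlapped between genotypes. Of the 7 tested genes for AMP deaminases, AMP synthesis and adenylate kinases 6 were higher and 1 lower, with a median of 0.07. Adsl, which completes AMP synthesis, differed by 0.26 ± 0.24 (SE), and the adenylate kinase Ak4 by 0.16 ± 0.22 (SE). The Adsl difference was 0.04 without Chrm1-/- replicate 3, and that of Ak4 turned to -0.02 without wild type replicate 2. Ahcy, which releases adenosine from S-adenosylhomocysteine inside cells, read 8.09, 7.88 and 7.83 against 7.06, 7.72 and 7.95. Chrm1-/- replicate 1 lay lowest there, and the difference was -0.36 ± 0.24 (SE). It was -0.10 without that array and turned to 0.03 with the mean of the gene's 2 clusters. In its list of nucleotidase and Ahcy family genes 6 of 10 tested genes were higher and 4 lower, with a median of 0.04. The higher ones included Ahcyl1 and Ahcyl2, relatives of Ahcy, at 0.05 and 0.03. Nt5m, a mitochondrial nucleotidase, differed by -0.34 ± 0.26 (SE).

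Among tested genes of the ectonucleotidase families, with Dpp4 counted among them, 4 of 6 were higher and 2 lower, with a median of 0.09. The list does not separate enzymes of the cell surface from those inside cells. Alpl, tissue-nonspecific alkaline phosphatase, which can also turn AMP to adenosine, differed by 0.17 ± 0.13 (SE), and Entpd7 by 0.24 ± 0.20 (SE). Dpp4 (CD26), the surface protein known to hold ADA outside human cells, read 9.91, 9.78 and 9.99 against 9.89, 9.45 and 10 and overlapped. Of 9 tested transporters and ATP release genes 7 were higher and 2 lower, with a median of 0.10. Slc29a2 (ENT2), a relative of Slc29a1, read 7.26, 7.17 and 7.64 against 7.87, 7.74 and 7.49. Its groups overlapped by a single array in each genotype, and the difference was 0.34 ± 0.17 (SE), opposite in sign to that of Slc29a1. Slc29a3 differed by -0.26 ± 0.22 (SE), which was -0.05 without wild type replicate 3, -0.48 without wild type replicate 2 and -0.03 with the mean of its 2 clusters.

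The list of purine salvage and breakdown also held the ribonucleotide reductase genes Rrm1, Rrm2 and Rrm2b, which were among its lower genes. With them counted, 5 of its 10 tested genes were higher and 5 lower, with a median of -0.03. Gda, which deaminates guanine, had the lowest of these differences at -0.61 ± 0.36 (SE), with 6.98, 6.74 and 8.06 in wild type and 6.44, 6.90 and 6.61 in Chrm1-/-. Wild type replicate 3 stood high among them. Hprt, which returns the hypoxanthine made by Pnp to the nucleotide pool, read between 11.12 and 11.34 on all 6 arrays. Rrm1 and Rrm2, subunits of the ribonucleotide reductase that dATP inhibits, differed by -0.20 ± 0.20 (SE) and -0.20 ± 0.16 (SE). Without wild type replicate 1 the Rrm1 difference turned to 0.015 and that of Rrm2 was -0.095. De novo purine synthesis had 7 of 11 tested genes higher and 4 lower, with a median of 0.04. Impdh1, a rate-limiting enzyme of GMP synthesis, differed by 0.26 ± 0.21 (SE), and Prps1, which makes the ribose donor, by -0.52 ± 0.48 (SE). Impdh1 differed by 0.04 without Chrm1-/- replicate 2, and Prps1 by -0.94 to -0.17 on leaving out 1 array.

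Signalling downstream of the adenosine receptors runs through cAMP. Of 21 tested cAMP genes 12 were higher and 9 lower, with a median of 0.04. Prkar2b, a regulatory subunit of protein kinase A, read 10.35, 9.97 and 10.14 against 10, 9.86 and 9.97, a difference of -0.21 ± 0.13 (SE). The cAMP phosphodiesterases Pde4a and Pde8a differed by 0.23 ± 0.16 (SE) and 0.49 ± 0.39 (SE), the latter with Chrm1-/- replicate 3 at 8.46 against 7.06 and 7.41 on the other Chrm1-/- arrays. No tested gene of this list had groups that did not overlap.

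**Figure D3:**
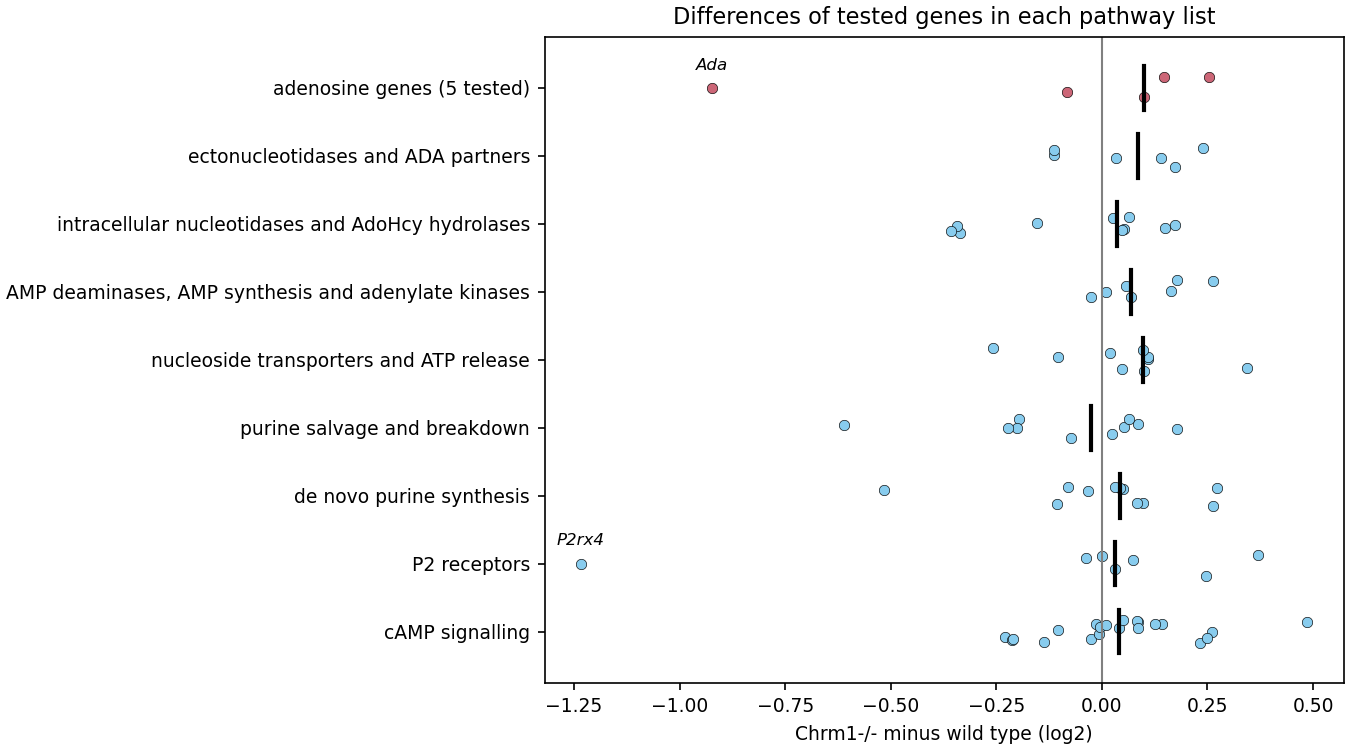
Difference in log2 signal, Chrm1-/- minus wild type (horizontal axis), of each tested gene (points) in the adenosine genes and the 8 pathway lists, with list medians as vertical bars; vertical scatter within a row has no meaning. Ada at -0.92 and P2rx4 at -1.23 lie apart from the rest, and list medians lie between -0.03 and 0.10.

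The genes whose pattern was most like that of Ada were sought by Pearson's r over the 6 arrays among the tested genes. Predicted genes, small RNAs, and olfactory, vomeronasal, T cell receptor and antibody genes were left out. Uchl5, a deubiquitinase of the proteasome, had r = 0.989 with Ada, as had the helicase gene Dhx57. Dmxl1, linked to the vesicular proton pump, followed at 0.985, Nosip at 0.984 and Cd55, which protects cells from complement, at 0.975. Their signals moved over a narrower span than that of Ada. Nosip differed most, at -0.38 ± 0.13 (SE), and Uchl5 least, at -0.18 ± 0.10 (SE). For all 5 the genotypes did not overlap, with Chrm1-/- lower, which was found for 2.97% of all tested genes. Their choice by likeness to Ada, whose arrays split by genotype, all but settled this.

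The most opposite patterns were those of Cnn3, an actin-binding calponin, at r = -0.982, Mthfsl at -0.979 and the chloride channel gene Clcn2 at -0.968. Cnn3 read 7.22, 6.90 and 7.05 in wild type and 7.81, 7.94 and 7.94 in Chrm1-/-. With the mean of each genotype taken off, r with Ada ran from 0.89 (Cd55) to 0.96 (Nosip) for the 5 like genes and from -0.97 (Cnn3) to -0.85 (Clcn2) for the 3 opposite ones. The 8 genes were picked for their likeness on these same arrays. Of 11093 other tested genes, 32 had r of 0.9 or more with Ada and 41 had r of -0.9 or less.

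**Figure D4:**
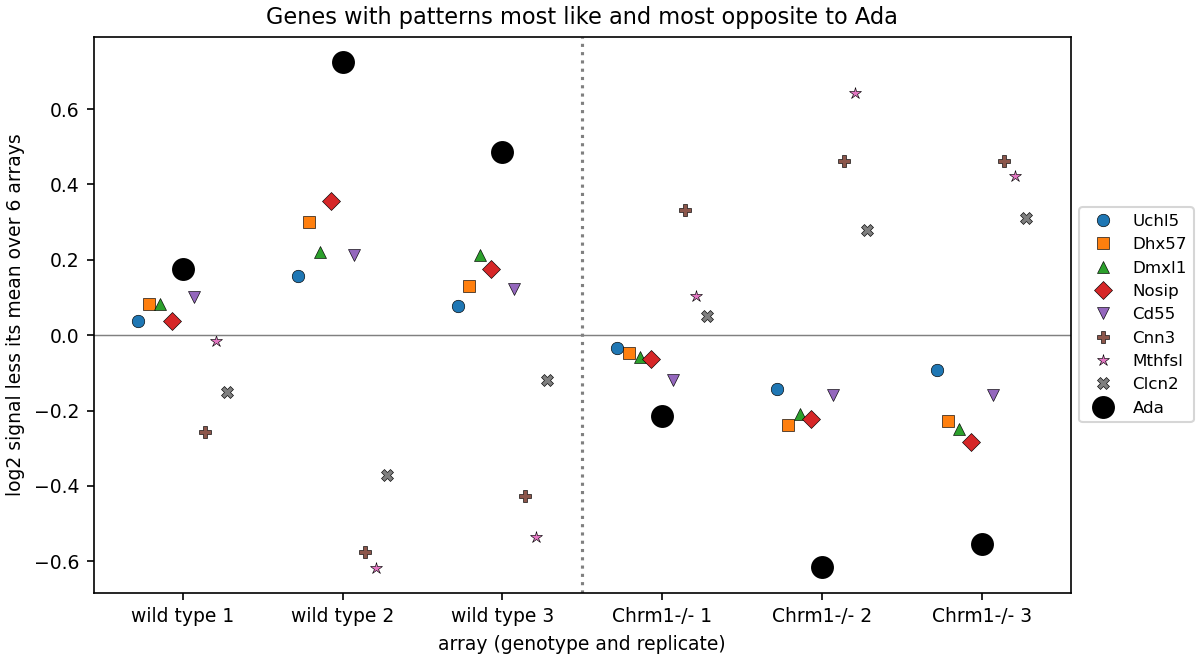
Log2 signal less its mean over the 6 arrays (vertical axis) of Ada (large black points) and of the 5 genes most like it and the 3 most opposite, on each array by genotype and replicate (horizontal axis). Ada spans from 9.48 to 8.14 in signal. Uchl5, Dhx57, Dmxl1, Nosip and Cd55, picked for likeness to Ada, split by genotype as Ada does over a smaller span. Cnn3, Mthfsl and Clcn2, picked as most opposite, run against it.

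Chrm1 itself read 7.45, 7.44 and 7.67 on the wild type arrays and 8.16, 7.52 and 7.58 on the Chrm1-/- arrays. The part of the gene that its probes cover is not stated, so this checks nothing about the labels.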

How the data were processed

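HSCs sorted from wild type and Chrm1-/- marrow were measured on 6 Affymetrix mouse gene arrays, 3 per genotype, grouped by the genotype in the sample titles. Per the series design text, amplification used a NuGEN kit and the authors ran the chips through Affymetrix software; its version, summarization and normalization are not stated in the labels. The authors' deposited table names no scale, and a log2 scale was inferred from values between 3.02 and 13.67.

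The platform annotation gave 1 gene symbol for 23521 of 41345 transcript clusters, several for 1814 and none for 16010. Per gene the cluster of highest mean was kept, and genes whose mean reached 6.77, the median over genes, were tested with limma 3.58.1 in R 4.3.3 (lmFit and eBayes, two-sided, Benjamini-Hochberg over all 11094 tested genes, threshold 0.05); Nt5e and Adora3 were fitted with no filter. Standard errors and intervals are limma's. The fit was tested on simulated data. Python 3.11.15, matplotlib 3.10.9, numpy 2.4.6 and pandas 2.3.3 served for tables and plots.

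The adenosine genes, pathway lists and marker lists were chosen with earlier results of these data known. Named are all adenosine genes, per pathway list some of the 3 genes with the lowest unadjusted p, the 5 genes most like and 3 most opposite to Ada, Chrm1 and cell markers. Pnp2, Dpp4 and Hprt were added after their values were seen, for their roles beside Pnp and Ada. Alternatives covered the filter, normalization, clusters per gene, moderation, array weights, the replicate block and leaving out each array.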

Additional observations from a re-analysis of the deposited data

How the results depend on the processing

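The Ada difference stayed negative under all 15 alternatives run, from -0.92 to -1.004 under other processing and from -1.07 to -0.79 on leaving out 1 array. Pnp and Adora3 kept their sign throughout, while Adk, Nt5e, Entpd1 and Slc29a1 each changed sign on leaving out 1 array, as given above. The count of genes past the adjusted p in limma was 0 and stayed 0 except that it was 1 without moderation (Apmap); on leaving out 1 array it ran from 0 to 1 (Gdpd3 without wild type replicate 1, Snord49a without Chrm1-/- replicate 3). It was also 0 at an adjusted p under 0.1. The count at an unadjusted p under 0.05, 332, was 567 with no filter on dim genes and 169 past the 75th percentile, where more and fewer genes were tested, and ran from 335 to 522 on leaving out 1 array, the highest without wild type replicate 3. Of the pathway genes, the 1 at an unadjusted p under 0.05 became 2 with no filter, with the mean of all clusters or without moderation, and 3 with array weights. On leaving out 1 array it ran from 1 to 4, the 4 without wild type replicate 3. The median of the nucleotidase and Ahcy family list, 0.04, was -0.21 without Chrm1-/- replicate 3. That of the P2 receptors, 0.03, was -0.62 past the 75th percentile, where only P2rx4 and P2ry14 were left. Without single arrays Entpd7 fell to 0.02 and Pde8a to 0.08 (both without Chrm1-/- replicate 3), Nt5m went to -0.11 (without wild type replicate 1) and Gda to -0.21 (without wild type replicate 3). P2rx4 was among the pathway genes under 0.05 each time, with a difference from -1.54 to -0.97. The cause of these shifts was not tested.

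Same-numbered arrays did not deviate together, with correlations of their deviations of -0.03, 0.01 and -0.01. With 3 arrays per genotype this cannot show whether same-numbered samples were handled together. With the replicate block the Ada difference was -0.92 ± 0.225 (SE), 0 genes passed the adjusted p in limma and the unadjusted count was 396. Array signals of Adora1, Adora2a and Adora2b were not analysed here, and with 3 arrays per genotype the intervals of Adk and Entpd1 allow changes of over 1.5-fold.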

Other observations

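Some genes hold exactly the same deposited value, to 2 decimals, on several arrays. Hlf, a transcription factor of HSCs, read 9.68 on 5 of the 6 arrays and 9.61 on the remaining one, and Ms4a3, a granulocyte precursor gene, read 7.55 on 4 arrays. Mink1 read 7.54 on all 6. Among the 11094 tested genes, 241 shared a value on at least 4 arrays and 38 on at least 5. Their median standard error was 0.11 for the 241 and 0.17 for the other tested genes, and 0 of the 241 had an unadjusted p under 0.05 in limma. A value held by at least 4 of the 6 arrays must occur in both genotypes, so these groups always overlap. Shared values also narrow the spread, so both results were largely set by how the 241 were picked. The adenosine genes shared a value on at most 2 arrays. The cause of the shared values was not tested.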
